A study of Mus musculus with 6 samples.

Results

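Merkel cells are touch receptor cells of the epidermis. The 8 genes described here, Atoh1, Sox2, Isl1, Pou4f3, Gfi1, Krt8, Krt18 and Krt20, are transcription factors and keratins used to recognise them. They were found by exact symbol in the annotation of the array, in which they held 9 transcript clusters (groups of probes that the array reads as 1 transcript) of 28853, and 8 of 20793 genes tested. RNA was extracted from whole digit tips, labelled intact, of mice aged 8 weeks and hybridised to Affymetrix MoGene 1.0 ST arrays, with 3 wildtype controls and 3 samples labelled K14-CreER;Ctnnb1 cKO (called cKO), and values are listed below in the order of replicates 1, 2 and 3. In these cKO mice Ctnnb1, which encodes beta-catenin, the transducer of canonical Wnt signals, is labelled as deleted through K14-CreER, an inducible Cre recombinase under the keratin 14 promoter of basal epithelium. The time of induction, any inducer given to the controls and the number of animals behind a sample are not in the labels, which call the replicates biological. The p-values therefore speak of the spread between these 6 samples.

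Merkel cells arise in mice from keratin 14-expressing epidermal progenitors, sit in the basal layer next to sensory nerve endings, and combine epithelial features with neuroendocrine and synaptic ones. ATOH1, a basic helix-loop-helix factor, is required for their formation in mice, and SOX2 and ISL1 act with it during their maturation. They are rare cells, and a digit tip also holds dermis, bone, marrow, nerve, vessels and sweat glands. Several of the 8 genes are also expressed in other such cells, as Gfi1 in blood cell lineages, Sox2 in hair follicle dermal papilla and Schwann cells, and Krt8 and Krt18 in the simple epithelium of glands. In bulk tissue, fewer cells of a type and less RNA per cell cannot be told apart. The deposited log2 signals are relative to the control median of each cluster, so that 1 control array reads 0 by construction. No absolute level can be read from them, and whether Merkel cell transcripts stood above background on these arrays could not be checked.

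Promoter sequences were read because a deletion of Ctnnb1 bears on promoters read by its DNA-binding partners, the TCF/LEF factors. Those of 3 of the transcription factors are shown, the only windows with a match to either motif named below. Coordinates here are of GRCm38.p6 and all later ones of mm9, and the builds are not set against each other. The windows are the 250 bases before the gene start in RefSeq (GRCm38.p6), and RefSeq windows were matched for 7 of the 8 genes. Capitals mark matches, on either strand, to a TCF/LEF motif (the letters CTTTGAA or else CTTTGAT, with CTTTGTA or else CTTTGTT as further forms) in Atoh1 and Sox2, and to an ATOH1-type E-box (the letters CAGCTG or else CAGATG) in Isl1.
Atoh1, chr6:64728875-64729124, plus strand: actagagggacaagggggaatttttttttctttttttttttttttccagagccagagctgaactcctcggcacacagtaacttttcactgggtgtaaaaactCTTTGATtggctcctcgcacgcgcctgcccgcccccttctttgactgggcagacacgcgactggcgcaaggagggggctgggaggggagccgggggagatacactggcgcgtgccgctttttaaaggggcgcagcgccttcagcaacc
Sox2, chr3:34649745-34649994, plus strand: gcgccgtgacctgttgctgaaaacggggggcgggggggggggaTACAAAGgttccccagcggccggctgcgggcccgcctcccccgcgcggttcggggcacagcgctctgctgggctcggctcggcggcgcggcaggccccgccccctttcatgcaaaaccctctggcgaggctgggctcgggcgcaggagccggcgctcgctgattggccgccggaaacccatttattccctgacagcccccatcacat
Isl1, chr13:116309689-116309938, minus strand: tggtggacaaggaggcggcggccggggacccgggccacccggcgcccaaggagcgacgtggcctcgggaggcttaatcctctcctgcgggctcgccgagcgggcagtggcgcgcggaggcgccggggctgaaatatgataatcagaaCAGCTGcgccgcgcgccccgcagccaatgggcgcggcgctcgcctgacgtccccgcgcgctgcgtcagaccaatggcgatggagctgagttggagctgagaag

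The Atoh1 window held CTTTGAT from position -148 to -142, and the Sox2 window held the same motif family on the other strand, as TACAAAG, from -207 to -201, counted back from the gene start. The windows of Isl1, Gfi1, Krt8, Krt18 and Krt20 held none of these TCF/LEF letters. Of all 32851 promoter windows of this length 14.8% held a TCF/LEF match and 25.5% an E-box match, so 2 of 7 genes and 1 of 7 genes are described here as letters only. A match is not a binding site, and the absence of one in this window says nothing of the factor.

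Of the 8 genes, limma called 1, Atoh1, lower in the cKO, and the other 7 did not pass. Over all genes 1.94% were called at an adjusted p under 0.05, 0.697% lower and 1.24% higher. The median difference over the 8 genes was -0.21 on the log2 scale, against -0.0044 over all genes tested, and 6 of 8 differences were negative, as were 50.4% of those of all genes. Control and cKO arrays did not overlap in 1 of the 8, again Atoh1, while 19.4% of all genes had groups that did not overlap, 9.25% lower and 10.1% higher in the cKO. The single called gene rests on a cluster whose identity is in conflict, which is described first.

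The symbol Atoh1 was carried by 2 clusters. The first cluster (10538751) lies at positions 64679119 to 64681570 of build mm9, plus strand, and its RefSeq accessions are those of Atoh1. It read -0.20, 0 and 0.05 in controls and -0.31, -0.47 and 0.24 in the cKO. The groups overlapped, with cKO replicate 3 above every control and the other 2 cKO arrays below every control. Fitted over all clusters singly, its log2 difference was -0.13 ± 0.23 (limma SE, n = 3 and 3), with an adjusted p of 0.857 and a 95% interval of -0.64 to 0.38. That interval runs from 64.0% to 130% of the control level.

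The second cluster (10538753) carries the same symbol but covers 291 bases at positions 64941212 to 64941502, which by the listed coordinates starts 259642 bases past the end of the first. The deposited files give positions without chromosomes, and chromosomes here and below are those of the named gene in the RefSeq table, which places both Atoh1 and Snx10 on chromosome 6. The RefSeq accessions listed for the second cluster that could be matched all belong to Snx10, a sorting nexin of endosomal membranes, in the RefSeq gene table. It read -0.55, 0 and 0.03 in controls and -2.37, -1.38 and -2.35 in the cKO. Every cKO array lay below every control. The difference was -1.86 ± 0.29, with a limma adjusted p of 0.0080 over all clusters, where 1.38% of clusters were called, 0.471% lower and 0.905% higher. It was 1 of the 9 clusters both in being called and in having groups that did not overlap, as 18.9% of all clusters had (9.27% lower and 9.63% higher), and 7 of the 9 differences were negative, against 51% of all clusters. Without cKO replicate 3 its adjusted p was 0.0887.

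Snx10 itself, named here after the values were seen, has a cluster of its own (10538290) at positions 51473970 to 51540678, with accessions of Snx10. It read -0.20, 0.21 and 0 in controls and -1.65, -1.01 and -1.55 in the cKO, a difference of -1.41 ± 0.23 (limma adjusted p 0.0104, and 0.0887 without cKO replicate 3). Over the 6 arrays the distant cluster followed Snx10 with a Pearson likeness of 0.992, which ranked 6 among 28852 other clusters, and the cluster at the Atoh1 locus followed Snx10 with 0.172. The likeness between the 2 clusters named Atoh1 was 0.127. These likenesses describe 6 arrays in 2 groups and carry no test. Which transcripts the probes of the distant cluster bind was not tested.

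**Figure D1:**
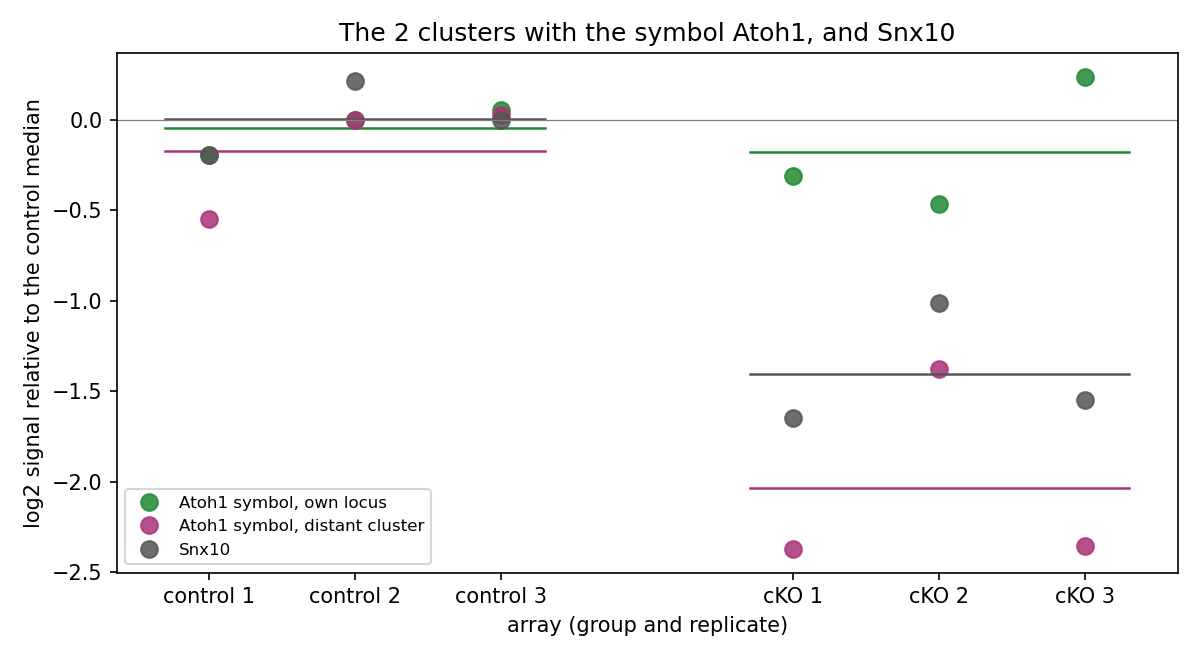
Log2 signal relative to the control median (y axis) on each array (x axis) for the 2 transcript clusters with the symbol Atoh1 and for the Snx10 cluster; points are arrays and lines are group means. The distant cluster and Snx10 lie below -1 on all 3 cKO arrays, while the cluster at the Atoh1 locus spans -0.47 to 0.24 there.

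The gene-level value of Atoh1 is the mean of both clusters, by the rule that a gene is the mean of its clusters with 1 symbol. That mean was -0.37, 0 and 0.04 in controls and -1.34, -0.92 and -1.06 in the cKO, a difference of -0.998 ± 0.22 with a limma adjusted p of 0.0386. With clusters in conflict left out, an alternative added after the data were seen, Atoh1 differed by -0.13 (limma adjusted p 0.862), and 0 of the 8 genes were called, with 0 at an unadjusted p under 0.05. Even as the mean, the call was kept only without control replicate 1 (limma adjusted p 0.0458). The adjusted p was 0.117 and 0.164 with the second or the third control left out, and 0.166 and 0.140 with the first or the third cKO array left out, and without the second it lay just above the threshold of 0.05. Such a conflict, a single symbol with accessions that all belong to another gene, was found in 59 of 19973 clusters with matched accessions (0.295%). Among the 9 clusters of the Merkel cell genes it was found in 1, and the accessions of the other 8 were those of their own gene.

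Sox2 and Isl1 encode factors that act with ATOH1 in maturing mouse Merkel cells, an HMG-box and a LIM-homeodomain protein. Their clusters lie at mm9 positions 34548977 to 34551383 of chromosome 3 (plus strand) and 117088489 to 117099896 of chromosome 13 (minus strand). Sox2 read 0.44, 0 and -0.28 in controls and 0.04, -0.42 and -0.10 in the cKO. The groups overlapped, and the highest array was control replicate 1. Its difference was -0.22 ± 0.24 (limma adjusted p 0.774, 95% interval -0.74 to 0.31). Isl1 read 0.46, -0.76 and 0 in controls and 0.13, -0.09 and 0.23 in the cKO. The controls were spread so widely, with an SD of 0.61, that all cKO arrays lay within their range, and the difference was 0.19 ± 0.29 (adjusted p 0.836). Leaving out control replicate 2, the lowest Isl1 array, turned the difference to -0.14.

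Pou4f3 and Gfi1 encode a POU-homeodomain factor and a zinc-finger repressor that lie downstream of ATOH1 in mouse inner ear hair cells. Pou4f3 was 1 of 2 genes of the 8 with a positive difference, the other being Isl1. It read 0.40, 0 and -0.17 in controls and 0.10, 0.35 and 0.87 in the cKO. The difference of 0.37 ± 0.25 (limma adjusted p 0.612) was 0.15 without cKO replicate 3, its highest array. Gfi1, at mm9 positions 108145678 to 108154825 of chromosome 5 (minus strand), read 0.60, 0 and -0.61 in controls and -0.06, -0.28 and -0.05 in the cKO. As for Isl1, all cKO arrays lay within the control range, and the difference of -0.13 ± 0.28 (adjusted p 0.892) changed sign, to 0.17, without control replicate 1 and, to 0.017, with array weights.

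KRT8 and KRT18 are the type II and type I keratins that pair into filaments in simple epithelia, and KRT20 is a type I keratin that in skin marks Merkel cells. Both lie on chromosome 15, at mm9 positions 101827138 to 101834773 (minus strand) and 101858656 to 101862452 (plus strand). Krt8 read -0.08, 0 and 0.15 in controls and -0.34, -0.07 and -0.14 in the cKO. Only cKO replicate 2 lay within the control range, just above control replicate 1, and Krt8 had the smallest within-group SD of the 8 genes (0.13, against a median of 0.281 over all genes). The difference was -0.21 ± 0.21 (limma adjusted p 0.742), and its 95% interval ran from 63.5% to 118% of the control level. Krt18 read 0.07, -0.35 and 0 in controls and -0.55, -0.21 and -0.90 in the cKO. Control replicate 2 lay below cKO replicate 2, so the groups overlapped. The difference of -0.46 ± 0.24 was the largest among the 8 clusters with accessions of their own gene, with an adjusted p of 0.470. Its interval ran from 50.7% to 104% of the control level.

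Krt20 lies on chromosome 11, at mm9 positions 99289717 to 99299467 of the minus strand. Krt20 read 0, 0.29 and -0.14 in controls and -0.48, -0.09 and -0.24 in the cKO. The groups overlapped through cKO replicate 2 alone, which lay above control replicate 3. The difference was -0.32 ± 0.22 (limma adjusted p 0.612), with an interval from 57.6% to 112% of the control level. All 3 keratins thus had negative differences, none of which passed, and each was called in 0 of the alternative settings tried. Across the 7 genes other than Atoh1 the lowest adjusted p in any alternative was 0.204.

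**Figure D2:**
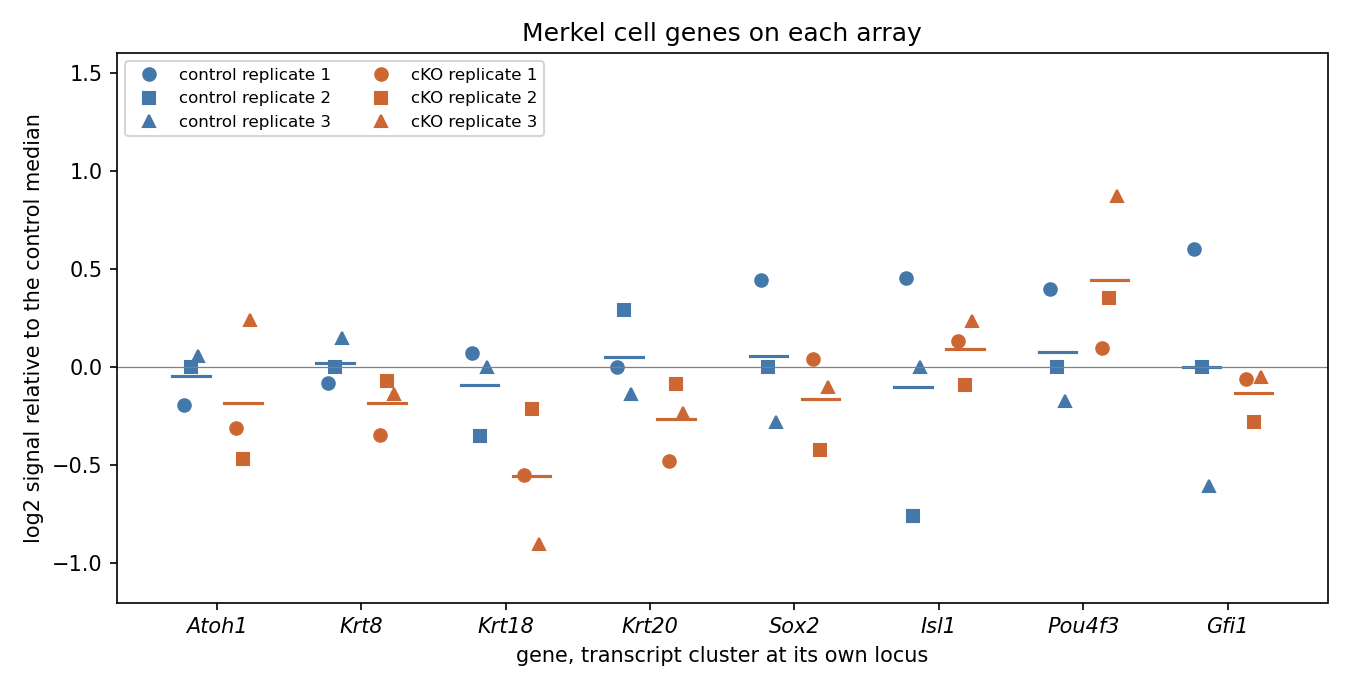
Log2 signal relative to the control median (y axis) of the 8 Merkel cell genes (x axis), each from the cluster at its own locus; points are the 6 arrays, marked by group and replicate, and short lines are group means. Control and cKO arrays overlap in all 8, and the widest control spread is that of Isl1 and Gfi1.

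**Figure D3:**
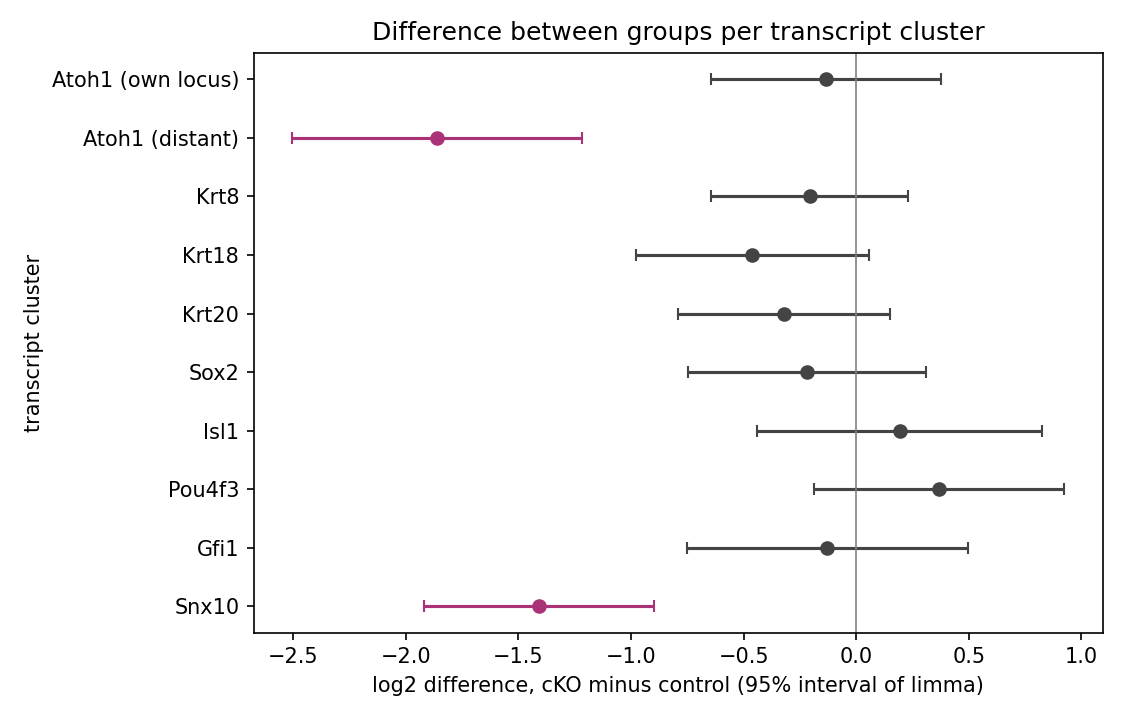
Log2 difference, cKO minus control (x axis), for the 9 clusters with a Merkel cell gene symbol and for Snx10 (y axis), with 95% intervals from limma fitted over all clusters. The distant Atoh1 cluster (-1.86) and Snx10 (-1.41) are the coloured, called points, and the intervals of the other 8 include 0.

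The authors' deposited tables hold none of the 9 clusters, neither among the 1755 with a change of at least 1.5-fold nor among the 681 with a corrected p under 0.05. Most of the 28853 clusters of the array are likewise in neither list, so this absence is no result about the 9. These lists followed a filter that, rebuilt from the values, kept a cluster when the 3 controls, or the 3 cKO samples, each stood at or above the 20th percentile of their own array. It kept 5 of the 9 clusters and dropped both Atoh1 clusters, Krt18 and Sox2. The percentiles are of control-centred values, so a cluster that was dropped is not thereby shown to have a low signal level. Among the controls of the distant Atoh1 cluster it was replicate 1 that missed the filter, where -0.55 lay below that array's 20th percentile of -0.141, and all 3 cKO samples missed it too. The rebuilt filter gave the same answer as the deposited list for 2658 of 2658 clusters with a change of at least 1.5-fold.

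Other genes of Merkel cells, with neuroendocrine, synaptic and mechanotransduction roles, were read from a list of 23 measured genes. Limma called Cck and Scg3 lower and Syp higher, 20 of 23 did not pass, and the list's median difference was -0.17. The share called over all genes was 1.94%, which also stands beside the list counts below. Cck, which encodes the peptide cholecystokinin, read 0.58, 0 and -0.16 in controls and -1.32, -1.90 and -0.97 in the cKO, and fell by 1.54 ± 0.28 on the log2 scale (adjusted p 0.011). Scg3, a secretogranin of dense-core vesicles, read 0.31, -0.49 and 0 in controls and -1.22, -1.98 and -1.001 in the cKO, and fell by 1.34 ± 0.29 (adjusted p 0.033). The groups did not overlap in either gene. Over the 23 genes they did not overlap in 4 lower and 2 higher genes, and 17 overlapped. Of all genes 19.4% did not overlap, 9.25% lower and 10.1% higher.

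Syp, a synaptic vesicle membrane protein, went the other way, from 0, 0.10 and -0.35 on the control arrays to 1.14, 0.85 and 0.86 in the cKO, and rose by 1.04 ± 0.22 (limma adjusted p 0.029). Its call ended when any array but control replicate 2 was left out (adjusted p up to 0.146). Without control replicate 1 none of the 23 was called, with 0.0794 for Cck and 0.157 for Scg3, and Scg3 was called only without control replicate 2 or cKO replicate 1 among the arrays left out in turn. Penk, proenkephalin, differed by -1.26 ± 0.40 (adjusted p 0.172) and was called without cKO replicate 2 (0.0075), where its value of -0.04 was near the controls. Chga, the granule protein chromogranin A, and Piezo2, the mechanosensitive channel of Merkel cells, were named after their values were seen. Chga differed by -0.58 ± 0.25 (adjusted p 0.355). Piezo2 differed by -0.15 ± 0.26 (adjusted p 0.863) as the mean of its clusters. Nerves, neuroendocrine cells and other cells also express these genes, and their part in these values was not tested.

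Signals and regulators of Merkel cell formation, such as ectodysplasin, hedgehog, FGF and Notch genes and Polycomb subunits, had 0 of 20 genes called by limma and 5 of 20 at an unadjusted p under 0.05, against 12.5% of all genes. Of these 20, 17 differences were negative, against 50.4% over all genes, and the list's median difference was -0.31. The list was chosen with earlier results of these data known, so these shares are a description and no test. The median signal of the list was 0 on each control array and lay between -0.33 and -0.31 in the cKO. Scaling each cluster to its control median draws list medians of controls toward 0, so the likeness of the controls is no result. The members of smallest p were Fgfr2, an FGF receptor (-0.72 ± 0.21, adjusted p 0.136), Notch1 (-0.70 ± 0.21, 0.153), Ezh2, the Polycomb methyltransferase (-0.68 ± 0.21, 0.161), and Edar, the ectodysplasin receptor (-0.70 ± 0.23, 0.187). Over the 20 genes, the groups did not overlap in 6 lower and 1 higher gene, and 13 overlapped. Of all genes 9.25% did not overlap and were lower, and 10.1% higher. Fgfr2 was called with array weights (0.030). Of 7 E protein partners and Id inhibitors of ATOH1 limma called 0, with 2 at an unadjusted p under 0.05. Id4 differed by -0.63 ± 0.21 (adjusted p 0.194, and 0.0419 with array weights), Id2 by -0.60 ± 0.21 (0.240), Tcf12 by -0.38 ± 0.22 (0.541) and Id1 by 0.31 ± 0.21 (0.606).

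The keratins were also set beside other simple epithelial keratins. Of 6 such genes, 3 of them Krt8, Krt18 and Krt20, limma called 1. Krt23 read 0, -0.22 and 0.12 in controls and -1.90, -1.72 and -0.82 in the cKO, and fell by 1.45 ± 0.28 (adjusted p 0.016). Krt23 was no longer called with control replicate 1 (0.0980), control replicate 3 (0.0625) or cKO replicate 1 (0.0633) left out. Krt7, a gland keratin, differed by -0.77 ± 0.32 (adjusted p 0.327). Eccrine sweat gland genes, which mark another epithelium with Krt8 and Krt18, had 0 of 14 called. Of these 14, 2 had an unadjusted limma p under 0.05, as had 12.5% of all genes. Slc12a2 was at -0.54 ± 0.22, Aqp5 at -0.47 ± 0.23 and Foxc1 at -0.60 ± 0.35. The median of the sweat gland list lay between -0.099 and 0.00025 in controls and between -0.16 and -0.04 in the cKO.

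Of 10 genes of touch domes and basal epidermis, the epithelium that surrounds Merkel cells, limma called Krt15 lower (-1.45 ± 0.23, adjusted p 0.0044) and Krt17, a keratin of touch domes and of stressed epidermis, higher (1.08 ± 0.22, 0.021), and 8 of 10 did not pass. Krt17 read 0, -0.27 and 0.01 in controls and 1.03, 0.74 and 1.205 in the cKO. Its call ended when any array but cKO replicate 2 was left out (adjusted p up to 0.123). Krt14, the gene whose promoter drives the Cre, differed by 0.37 ± 0.20 (adjusted p 0.508) and Gli1, a hedgehog target, by -0.47 ± 0.32 (0.601).

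Genes of other cells that express Sox2 or Gfi1 were read beside them. In the Schwann cell and nerve list limma called 0 of 16, with 3 at an unadjusted p under 0.05, against 12.5% of all genes. Among its genes of smallest p were Egr2 (-1.02 ± 0.33, adjusted p 0.188), Nefl (-0.55 ± 0.21, 0.298) and Nefm (0.48 ± 0.22, 0.413), of which Egr2 was called without control replicate 2 (0.0083). The list's median lay between -0.14 and 0.24 in controls and between -0.15 and -0.04 in the cKO. Of 12 dermal papilla genes Hhip, a hedgehog-binding protein, fell by 2.16 ± 0.35 (adjusted p 0.0051) and Alpl, an alkaline phosphatase that bone also expresses, rose by 1.41 ± 0.23 (0.0055), and 10 did not pass. Of these 12 genes 6 had an unadjusted limma p under 0.05, against 12.5% of all genes. Positive differences were found in 9, while 50.4% of all genes had negative ones, and the list's median difference was 0.38. The list was chosen with earlier results of these data known, so these shares are a description and no test. The median of the list lay between -0.47 and 0.21 in controls and between 0.17 and 0.58 in the cKO. Bmp4 differed by -1.03 ± 0.33 (adjusted p 0.185) and Wif1 by 0.80 ± 0.28 (0.216, and 0.0469 with array weights). The call of Hhip ended without control replicate 1 (0.0578) or cKO replicate 3 (0.0693). The part of these cells in the Sox2 values was not tested.

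Limma called 1.24% of all genes higher and 0.697% lower. Among blood lineages that express Gfi1, it called 3 of 14 T lymphocyte and natural killer cell genes, all higher. They were Cd3g, at 3.52, 3.97 and 4.24 in the cKO against -0.32 to 0.05 in the controls, Cd3d (1.65 ± 0.27) and Il2rb (1.27 ± 0.22), with Cd8a at 0.56 ± 0.27 (adjusted p 0.421). It called S100a8 (5.05 ± 0.21) and S100a9 (4.89 ± 0.23), which stressed keratinocytes also express, of 14 neutrophil and marrow genes, with Ltf at 0.49 ± 0.21 (0.350) and Ly6g at 0.35 ± 0.23 (0.593). Of 9 genes of type 2 innate lymphoid cells it called Areg, amphiregulin (2.50 ± 0.29), and Il1rl1, the IL-33 receptor (1.53 ± 0.27), higher. It called Gata3, which nail and hair epithelium also express, lower (-1.80 ± 0.28), with Il7r at 1.31 ± 0.37 (0.119). Over these 9 genes 5 differences were negative and 4 positive. Il7r was called without control replicate 3 (0.0020), and Il1rl1 was not without control replicate 1 (0.0662). The medians of these 3 lists in the cKO lay between 0.27 and 0.44, 0.04 and 0.14, and -0.08 and 0.06, against 0 to 0.35, -0.03 to 0.18, and -0.09 to 0.0017 on the control arrays. Gfi1 had an interval of -0.74 to 0.48 beside these, and the part of blood cells in its values was not tested.

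**Figure D4:**
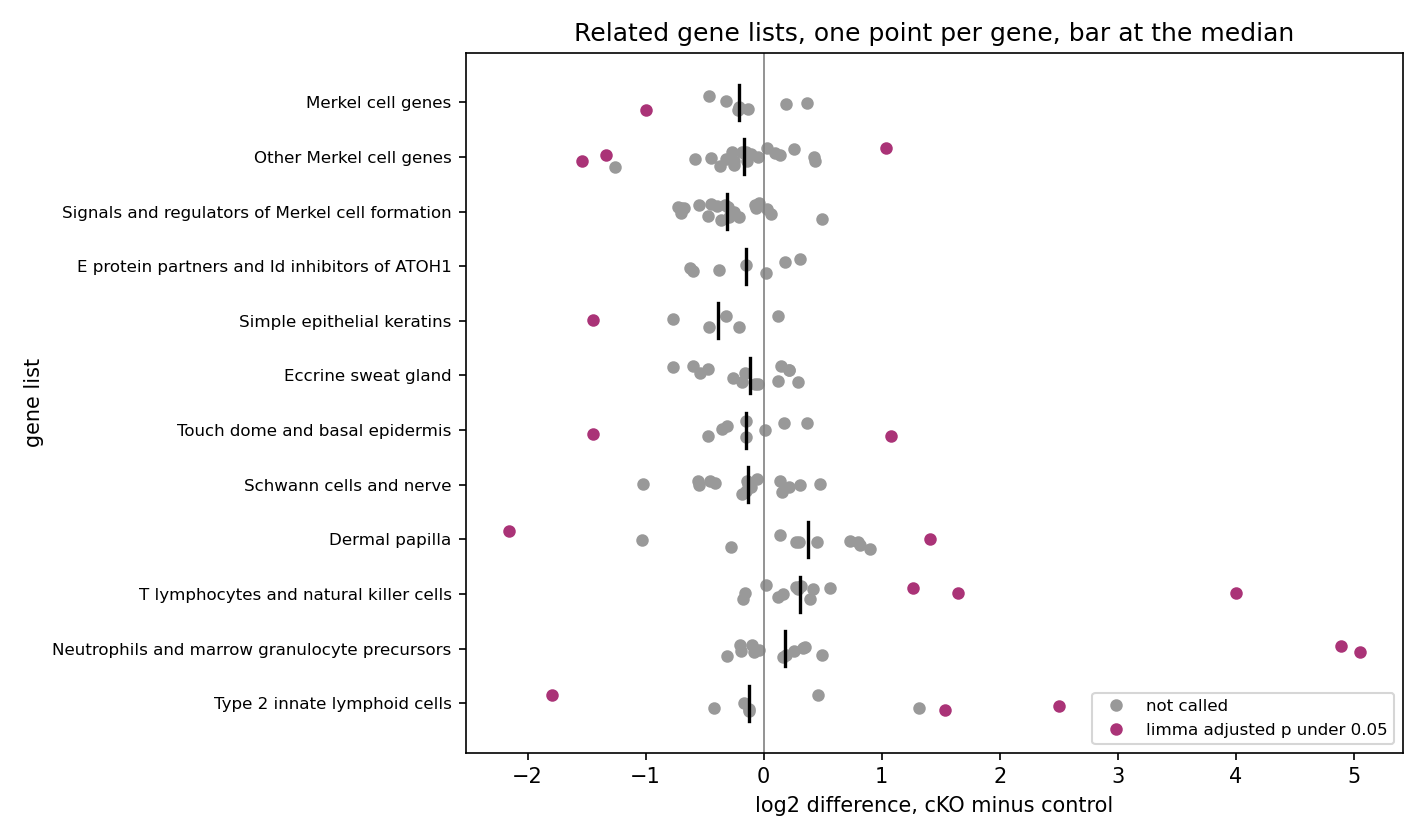
Log2 difference, cKO minus control (x axis), for the genes of each list (y axis), with 1 point per gene, coloured where limma's adjusted p was under 0.05, and a bar at the list's median. The coloured Merkel cell gene at -0.998 is Atoh1 as the mean of its 2 clusters, and the list of signals and regulators has no coloured point.

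As a description of likeness, the 3 genes closest to each of the 3 members of smallest p were read by Pearson's coefficient over the 6 arrays. For Atoh1, as the mean of its clusters, they were Slc4a9 (0.993), Csnk2a2 (0.992) and Gm9457 (0.992). For Krt18 they were Ric8a (0.995), Celf4 (0.992) and H4c8 (0.989), and for Krt20 6030445D17Rik (0.995), Fbxo24 (0.990) and Slc6a19 (0.987). Limma called 0 of these 9 genes, of which Slc4a9 (-0.96, adjusted p 0.0581) was called with array weights (0.0047), robust variances (0.0461) or without control replicate 1 (0.0458), and the coefficients describe 6 arrays in 2 groups only.

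Over the series, array medians lay between -0.0086 and 0.0779, and limma called 258 genes higher and 145 lower. Ctnnb1 was lower in the cKO, at -1.10, -0.87 and -1.06 against 0, -0.19 and 0.59 on the controls, a difference of -1.14 ± 0.24 (adjusted p 0.0284), and it was no longer called with the first (0.0795) or the third control (0.138) left out, nor with the first (0.0944) or the third cKO sample (0.148) left out. Where its probes lie relative to the deletion was not analysed here, so this value checks the labels only in part. Replicate 1 of the cKO stood apart in sex-linked genes. It read 8.08 for Ddx3y, 7.62 for Eif2s3y, 6.84 for Uty and -5.84 for Xist, against -0.39 to 0.84 for all 4 on the other arrays. By these values cKO replicate 1 read as male and the other arrays as female, and the labels do not give sex. Without cKO replicate 1, limma called 0 of the 8 Merkel cell genes, with differences of -0.13 for Krt8 and 0.54 for Pou4f3. It called 13 genes in the related lists, against 16 with that array.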

How the data were processed

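RNA of whole digit tips was measured on 6 arrays. Per the deposited methods sheet, the authors quantile-normalised signals with PLIER16 on the log2 scale, with the median of the controls as each cluster's baseline, so differences between groups are kept and levels are lost. Annotation release na31 (build mm9) is named in the file headers. Deposited lists of the authors hold p-values, corrected by Benjamini-Hochberg, and a signed fold score.

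Fits used the series' value table, within 5e-05 of the deposited workbook. A single gene was named for 22971 of 28853 clusters, several for 2946 and none for 2936. Gene names were updated by Entrez identifier with a RefSeq gene table (GRCm38.p6), in which 21924 single-gene clusters matched. A gene is the mean of its single-gene clusters, and 20793 genes were fitted with limma 3.58.1 in R 4.3.3 (lmFit, eBayes), cKO minus control, with Benjamini-Hochberg adjustment over all genes. Single clusters were fitted likewise over 28853. Errors are limma standard errors. The number of arrays limits the precision. Tubb3 and Kdm5d of the lists were not analysed here.

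The members and lists were chosen with earlier results of these data known. A gene that the naming rule takes is not reported here. Named genes are the 8 members, Ctnnb1, every called gene of a list with those of smallest p up to 4 per list, and the 3 genes most like each of the 3 members of smallest p. Snx10, Chga, Chgb and Piezo2 lie outside this rule and were named after their values were seen. Alternatives were the workbook values, centred arrays, a replicate block, array weights, a plain unmoderated test, robust variances, single clusters, the authors' filter, genes with 1 cluster, a call that also needs 1.5-fold, and fits without each array in turn. Leaving out clusters in conflict was added after the data were seen.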

Additional observations from a re-analysis of the deposited data

How the results depend on the processing

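The count of called Merkel cell genes was 1 with the workbook values, centred arrays, replicate block, array weights, robust variances and a 1.5-fold minimum. With clusters tested singly 1 symbol was called, Atoh1, through the distant cluster alone. Of the 8 clusters with accessions of their own gene 0 were called. The count of genes was 0 with the unmoderated test named in the authors' headers, which left 1 of 8 at an unadjusted p under 0.05 (2422 of 20793 genes). That test was run here over all genes tested. The authors' list of 681 clusters followed their filter, so the calls are not set against each other. The count was also 0 with the authors' percentile filter or genes with 1 cluster, which remove Atoh1, and with conflicting clusters left out. It was 0 to 1 when 1 array was left out. The 7 genes other than Atoh1 were called in 0 of 117 alternatives and kept their direction in 114. The exceptions were Isl1 (-0.14 to 0.47 with 1 array left out) and Gfi1 (-0.43 to 0.17, and 0.017 with array weights). The Atoh1 cluster at its own locus ranged from -0.34 to 0.0098, Uty from -0.049 to 3.44 and Ddx3y from -0.14 to 4.01.

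Over all genes, 403 calls became 828 with array weights, 13 with the unmoderated test and 192 to 403 with 1 array left out (261, 255 and 192 without control replicate 1, control replicate 3 and cKO replicate 3). Higher calls were 523, 10 and 133 to 261 under these, and lower calls 305, 3 and 59 to 165, with 47 lower after the authors' filter. Genes called in the related lists numbered 16, against 2 with the unmoderated test, 10 after the filter and 9 to 16 with 1 array left out, 9 without control replicate 1. With the replicate number as a block 575 genes were called, 218 of them lower, and Penk (adjusted p 0.0308), Bmp4 (0.0380), Il7r (0.0142) and Slc4a9 (0.0315) gained a call. Same-numbered arrays share only a number: their deviations from the group means correlated by 0.042, 0.138 and -0.085 across genes, and not every array was closest to its own number. The filter, single clusters and 1-cluster settings gave no gene-level value for some genes, Atoh1 among them. With 3 arrays per group the intervals are wide, and for a gene that was not called the differences within its interval remain possible. Signal over background is not known from control-centred values.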
